A study of Mus musculus with 10 samples.

Results

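The expressed *Zfp* genes of mouse embryonic stem cells (mESCs) were taken as all genes whose symbol is *Zfp* followed by a number alone and whose level reached 1 FPKM (fragments per kilobase of exon, relative to library size) in both wild-type (WT) libraries. *Zfp42*, *Zfp57*, *Zfp352* and *Zfp541* were left out by name. This gave 282 members of 344 genes with such a symbol, in a table of 34591 genes. The members were thus chosen by their WT values, which are given as a description, and every comparison with WT shares these values with that choice. Just inside the threshold lay *Zfp672* (1.01 and 1.02 FPKM as deposited), *Zfp54* (1.01 and 1.28) and *Zfp619* (1.02 and 1.02), and just outside it *Zfp341* (0.984 and 1.08), *Zfp651* (0.931 and 0.942) and *Zfp558* (0.873 and 0.992).

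RNA-seq was made from WT mESCs and from 4 mutant clones, of which D2A7 and D1E6 lack *Dnttip1* and E2E8 and E2G7 lack *Elmsan1*. Each line gave 2 libraries, 10 in total. All lines derive from C57/BL6 Bruce-4 mESCs and were kept in 2iL, a defined medium with LIF and inhibitors of GSK3β and MEK that holds mESCs in a naive state. DNTTIP1 and ELMSAN1 are the scaffold proteins of MiDAC, a histone deacetylase complex, and their genes were cut in exon 2 with CRISPR/Cas9. In humans MiDAC holds HDAC1 or HDAC2, and in mESCs the study found HDAC1 but not HDAC2 bound to these proteins. Each KO line is a single clone, so the 4 libraries of a knockout stand for 2 independent lines, and clones are called by their codes because the sources number the *Dnttip1* KO clones in opposite ways.

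Most proteins of this family bind DNA through tandem C2H2 zinc fingers, in which cysteine and histidine residues hold a zinc ion and each finger reads a few bases. Many carry a KRAB domain, which recruits the corepressor TRIM28 and, with it, the H3K9 methyltransferase SETDB1, and in mESCs such proteins silence transposable elements and guard imprinted genes. KRAB zinc finger genes multiplied by tandem duplication and lie in clusters of close relatives, while some genes with a *Zfp* symbol encode fingers of another kind that bind RNA or act as ubiquitin ligases.

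*Dnttip1* RNA was at 8.45 and 8.35 FPKM in WT, 4.57 and 4.55 in D2A7 and 2.58 and 2.60 in D1E6. The 4 *Dnttip1* KO libraries lay below all others. The *Elmsan1* row, listed as *C130039O16Rik*, held 5.73 and 5.34 FPKM in WT and 4.63 to 5.13 in the *Elmsan1* KO libraries, which all lay below WT and below the *Dnttip1* KO libraries. The fragments recovered from the FPKM values numbered 30182379 to 84291842 per library, fewest in the WT libraries. The summed level of 8 mESC markers was 1245 to 1300 FPKM in WT and 1004 to 1177 in the KO libraries. Of 6 fibroblast markers 4 stayed under 0.1 FPKM in every library, and their sum never passed 0.569 FPKM. The summed level of 4 neural markers was 53.9 to 60.4 FPKM in WT and 44.3 to 87.6 in the KO libraries, with 2 of them under 0.1 throughout, and that of 5 primitive endoderm markers 0.785 to 0.886 and 0.454 to 1.36, also with 2 under 0.1. Most of the neural sum was *Tubb3*, with a mean of 56.7 FPKM in WT. Between clones, *Sox1* (log2 difference 1.24), *Gata4* (1.17) and the fibroblast marker *Thy1* (0.85) were called higher in D2A7 than D1E6. *Tubb3*, the other neural marker tested, went the other way (-0.26), with an adjusted p under 0.05 but no call. In E2E8 versus E2G7 *Tubb3* was called lower (-0.95), while *Sox1* differed by 0.08 and was not called. The part of these marker differences in the results was not tested.

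The members were expressed at moderate levels. Their WT means, here and below after scaling the libraries to a common median ratio, ran from 1.03 to 53.7 FPKM with a median of 5.65 and quartiles of 3.30 and 11.1, against a median of 9.80 over all 11857 genes that reached 1 FPKM in both WT libraries, called expressed genes below. Highest were *Zfp553*, *Zfp106*, *Zfp534*, *Zfp207*, whose protein binds the spindle and kinetochores, and *Zfp330*. *Zfp553* had 55.7 and 51.7 FPKM in WT. The member with the fewest fragments in a WT library had 40 of them. Libraries of the same line lay close together, with a median SD of 0.0586 on the log2 scale per member.

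Of the 277 members found by identifier in GENCODE vM1, the annotation on the NCBIM37 build, all were protein coding, and their coding sequences held a median of 10 C2H2 fingers, counted from the spacing of cysteines and histidines. The number ran from 0 in 8 members to 36, and 233 members had at least 5. The letters of a KRAB core were found in 130 members, with a median of 12 fingers, and not in 147, with a median of 8. A single fixed pattern was searched, so members without these letters may still carry a KRAB domain. The letters of a SCAN domain, which lets zinc finger proteins pair, were found in 9. Chromosome 7 held 75 members, chromosome 17 held 37, chromosome 13 held 24 and chromosome 8 held 19. Where members at most 1000000 bases apart were joined, 14 clusters of 5 or more held 129 members, or 46.6% of those placed. The largest, on chromosome 17 from 21145905 to 23736454, held 19 members, 17 of them with the KRAB letters. A cluster of 11 on chromosome 7 from 24866943 to 26012526, with *Zfp180*, *Zfp108* and *Zfp93*, held no member with these letters. That does not show that they lack a KRAB domain.

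Promoters of 226 members were matched in RefSeq (GRCm38.p6), each with 250 bases before and 50 after the start of the transcript. Median GC content was 54.7% against 61.3% in 7315 other expressed genes, and the GC box GGGCGG was present on either strand in 45.6% against 68.3%. The word ACTACAATT, part of the sequence bound by the general promoter factor ZFP143 (itself encoded by a member), was read on both strands and found in 9 of 226 members (3.98%), in 0.834% of the other expressed genes and in 0.433% of all 27025 promoters. These 9 windows of 30 bases are shown because they carry the same word, in capitals in either orientation (the other strand reads AATTGTAGT). They are given 5′ to 3′ on the strand of the gene.
*Zfp1*: gcattatgggAATTGTAGTcctacacctca
*Zfp58*: gacttgtgggAATTGTAGTctggccactgt
*Zfp93*: gaattctgggAATTGTAGTtccaacgccag
*Zfp108*: gcattctgggAATTGTAGTtctggagccat
*Zfp111*: acttACTACAATTgtctttcatgccatttt
*Zfp180*: gagttctgggAATTGTAGTtccattgagct
*Zfp454*: gccttctgggAATTGTAGTttcggccacaa
*Zfp692*: actaaggctaACTACAATTcccggcaggct
*Zfp933*: tttccaaagaACTACAATTcccagcattcc

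All 9 windows were placed by exact match of their promoters in NCBIM37. They lie, with the strand in brackets, at chr8:114167310-114167339 (+) for *Zfp1*, chr13:67601467-67601496 (-) for *Zfp58*, chr7:25055358-25055387 (+) for *Zfp93*, chr7:25039738-25039767 (+) for *Zfp108*, chr7:24993389-24993418 (-) for *Zfp111*, chr7:24866886-24866915 (+) for *Zfp180*, chr11:50701157-50701186 (-) for *Zfp454*, chr11:58120513-58120542 (+) for *Zfp692* and chr4:147222540-147222569 (-) for *Zfp933*. The word began between 246 bases upstream of the start, in *Zfp111*, and 20 bases upstream, in *Zfp180*. *Zfp93*, *Zfp108*, *Zfp111* and *Zfp180* lie in the same chromosome 7 cluster, so the 9 promoters may not be independent of each other. A match of letters is not a site. *Zfp143* itself was at 12.88 and 12.99 FPKM in WT and 12.7 to 13.9 in the KO libraries. Of the 9 genes, *Zfp1* (log2 fold change 0.38, adjusted p = 0.0368) and *Zfp93* (0.37, adjusted p = 0.0337) rose in *Dnttip1* KO mESCs by limma, both by less than 1.5-fold, where 11.3% of expressed genes passed an adjusted p under 0.05. In *Elmsan1* KO their adjusted p was 0.189 and 0.164. *Zfp1* lies on chromosome 8, whose other genes were higher in every clone (below).

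*Zfp534* and *Zfp600*, both on chromosome 4, are similar upstream of their starts. Each also shares transcript sequence with some other gene, and whether they share it with each other was not tested. Their 250 bases before the RefSeq start are shown because both genes moved in clone D2A7 (below), and capitals mark the 197 identical bases among 215 aligned bases (91.6%).
*Zfp534*, chr4:147076741-147076990 of NCBIM37, - strand: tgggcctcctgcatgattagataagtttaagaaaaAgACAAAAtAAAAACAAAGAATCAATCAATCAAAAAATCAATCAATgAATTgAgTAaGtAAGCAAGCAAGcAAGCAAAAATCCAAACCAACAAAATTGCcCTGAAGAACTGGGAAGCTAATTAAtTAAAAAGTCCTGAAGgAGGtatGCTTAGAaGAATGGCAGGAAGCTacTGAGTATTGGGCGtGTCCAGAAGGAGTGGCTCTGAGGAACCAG
*Zfp600*, chr4:146123978-146124227 of NCBIM37, + strand: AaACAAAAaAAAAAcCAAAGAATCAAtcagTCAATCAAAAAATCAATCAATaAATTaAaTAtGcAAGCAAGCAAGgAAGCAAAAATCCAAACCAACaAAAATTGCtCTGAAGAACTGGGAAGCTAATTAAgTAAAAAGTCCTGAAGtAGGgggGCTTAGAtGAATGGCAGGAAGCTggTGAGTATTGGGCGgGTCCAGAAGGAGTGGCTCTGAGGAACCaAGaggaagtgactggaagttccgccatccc

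Reads of shared sequence may be counted for either gene or dropped. Of all stretches of 100 bases in a member's transcripts, the length of a read, 65.4% in *Zfp600* and 36.4% in *Zfp534* also occur in another gene, as do 67.6% in *Zfp97*, 66.5% in *Zfp960* and 20.0% in *Zfp934*. The values of these genes are uncertain for that reason. Over 5% of stretches were shared in 22 members and none in 229.

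In *Dnttip1* KO versus WT mESCs, 3 members were called by the rule of the study, a 1.5-fold change or more with p under 0.01 before adjustment (limma). *Zfp54* and *Zfp768* were downregulated and *Zfp819*, a KRAB zinc finger gene whose protein restrains retroelements, was upregulated. That is 1.06% of the members, against 5.51% of the expressed genes and 6.51% of all genes tested (3.25% lower and 3.26% higher). *Zfp819* was at 10.8 and 11.4 FPKM in WT, at 18.9 and 18.4 in D2A7 and at 15.1 and 15.4 in D1E6. The groups did not overlap, and *Zfp819* rose by 0.60 on the log2 scale (standard error 0.113, adjusted p = 0.0306). *Zfp54* was at 1.05 and 1.26 FPKM in WT, 0.636 and 0.729 in D2A7 and 0.539 and 0.693 in D1E6, all KO libraries below WT. It fell by 0.75 on the log2 scale (standard error 0.166, adjusted p = 0.0455), on 74 to 137 fragments in these 6 libraries. *Zfp54* is a member only through its WT values, the higher ones, so its fall was measured on the values that chose it, and with members chosen by their mean over all 10 libraries 2 were called, without *Zfp54*. *Zfp768* was at 2.16 and 1.86 FPKM in WT, 1.08 and 1.09 in D2A7 and 1.39 and 1.28 in D1E6. It fell by 0.69 on the log2 scale (standard error 0.149, adjusted p = 0.0418). With an estimated correlation between the libraries of each clone, the adjusted p was 0.131 for *Zfp819*, 0.436 for *Zfp54* and 0.301 for *Zfp768*, and the calls of the latter pair were lost. The call of *Zfp819* was lost with quantile normalization (log2 fold change 0.57), with a pseudocount of 1 (0.56) and without D2A7 replicate 1 (0.54) or replicate 2 (0.55), each time below 1.5-fold. None of the 3 genes was called when either WT library was left out, where limma called 2 other members (without WT replicate 1) or 1 other (without WT replicate 2).

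By adjusted p alone (under 0.05, whatever the fold), 9 members fell and 15 rose in *Dnttip1* KO mESCs. The background was 11.3% among expressed genes and 9.47% among all genes tested, 4.28% lower and 5.19% higher. The median log2 fold change of the members was -0.01 and that of all genes tested 0.02, and the median absolute change was 0.136 against 0.154 among expressed genes. The largest absolute difference among members belonged to *Zfp521*, a gene that promotes neural differentiation of mESCs, at 5.45 and 5.26 FPKM in WT, 1.14 and 1.45 in D2A7 and 3.32 and 3.42 in D1E6. Its log2 difference of -1.31 carried a standard error of 0.475 and did not pass (adjusted p = 0.141), as the clones lay far apart.

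In *Elmsan1* KO versus WT mESCs, 7 members were called, 3 down and 4 up, which is 2.48% against 5.13% of expressed genes and 6.43% of all genes tested (3.68% lower and 2.74% higher). *Zfp951*, *Zfp711* and *Zfp14* were downregulated, and *Zfp69*, *Zfp184*, *Zfp192* and *Zfp398* upregulated. *Zfp951*, with the KRAB letters and 10 fingers, was at 14.8 and 15.5 FPKM in WT, 9.19 and 8.87 in E2E8 and 7.02 and 6.82 in E2G7. It fell by 0.93 on the log2 scale (standard error 0.142, adjusted p = 0.0143), and no KO library reached WT. *Zfp69* was at 1.44 and 1.49 FPKM in WT, 2.54 and 2.62 in E2E8 and 3.00 and 2.87 in E2G7, a log2 rise of 0.87 (standard error 0.111, adjusted p = 0.00895). *Zfp184* rose by 0.63 (standard error 0.078, adjusted p = 0.00833), from 4.55 and 5.10 FPKM to between 7.18 and 7.74. All 4 KO libraries of both genes lay above WT. *Zfp184* was not called in *Dnttip1* KO, but those libraries, at 5.86 to 7.42 FPKM, also lay above WT.

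*Zfp711*, an X-linked gene linked to intellectual disability whose protein partners with the demethylase PHF8, was at 1.96 and 1.89 FPKM in WT and 1.09 to 1.24 in the *Elmsan1* KO libraries, a log2 fold change of -0.70 (adjusted p = 0.0184). In *Dnttip1* KO mESCs its difference was -0.67 but did not pass (adjusted p = 0.151), with 1.54 and 1.45 FPKM in D2A7 and 0.932 and 0.895 in D1E6. *Zfp192* and *Zfp398* rose by 0.62 and 0.59 (adjusted p = 0.0261 and 0.0429), while *Zfp14*, with 55 and 80 fragments in WT, had a log2 fold change of -0.62 and an adjusted p of 0.0664. *Zfp398* lies on chromosome 6, where 512 other expressed genes had a median log2 fold change of 0.34 in *Elmsan1* KO (below). The part of this in its rise was not tested. In the *Dnttip1* KO libraries, *Zfp192* lay above WT (2.42 to 2.60 FPKM against 1.80 and 2.03) and *Zfp14* below it (0.589 to 0.935 against 1.22 and 1.39). *Zfp398* overlapped WT there (1.14 to 2.18 against 1.14 and 1.31). None of these was called in *Dnttip1* KO. *Zfp14*, like *Zfp54*, is a member only through its higher WT values, and with members chosen by their mean over all libraries 6 were called. With an estimated correlation within clones, the adjusted p of these 7 genes ran from 0.0848 to 0.56, and *Zfp711*, *Zfp14*, *Zfp192* and *Zfp398* were no longer called. Without WT replicate 1 the count fell to 2. By adjusted p alone 5 members fell and 14 rose, against a background of 12.3% of expressed genes and 10.5% of all genes tested (4.91% lower and 5.62% higher). The median log2 fold change was -0.03 over the members and 0.00 over all genes tested.

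**Figure D1:**
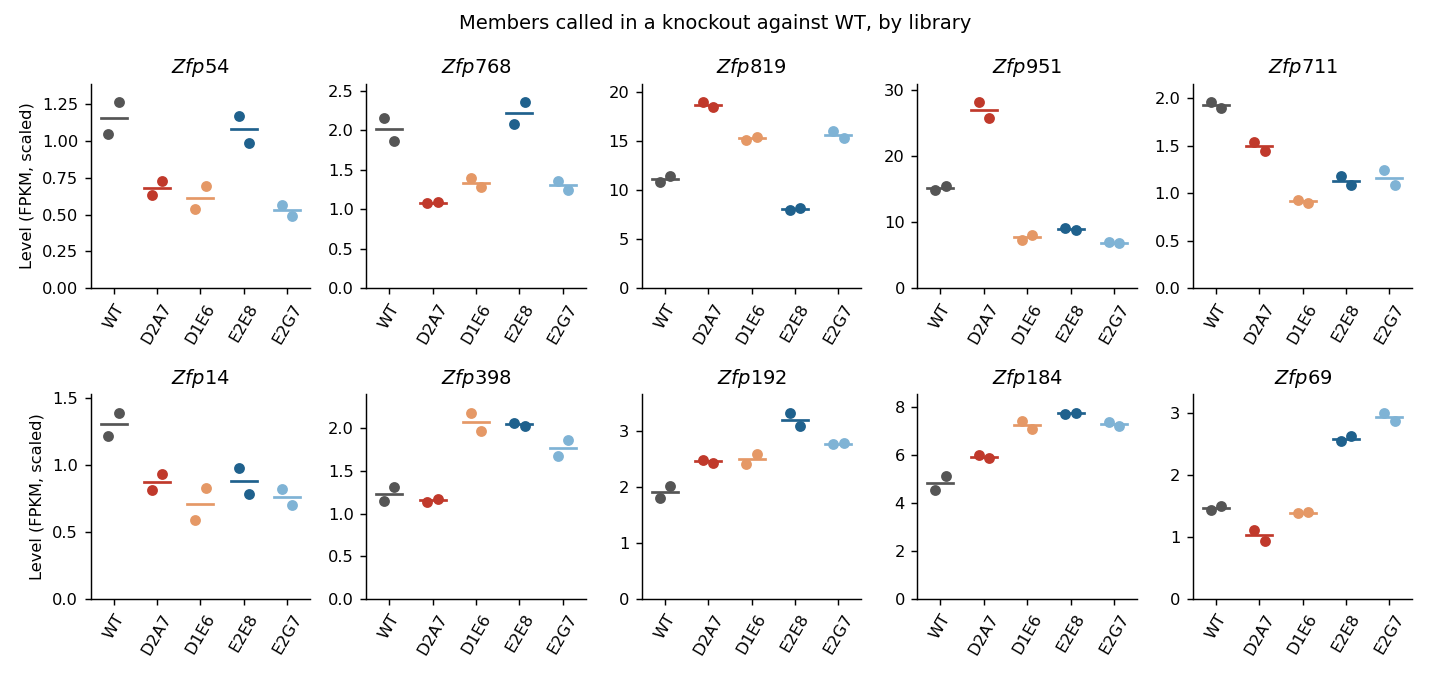
Level of the 10 members called in either knockout against WT (vertical axis, FPKM after scaling, from 0) in each library by line (horizontal axis). Points are libraries and bars the mean of the 2 libraries of a line. *Zfp819* lies above WT in D2A7, D1E6 and E2G7 and below it in E2E8.

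The clones of a knockout differed in several of the called genes. *Zfp819* was at 7.98 and 8.20 FPKM in E2E8, under WT, and at 15.3 or more in E2G7, over WT, so its log2 difference in *Elmsan1* KO was 0.02 with a standard error of 0.328. *Zfp54* and *Zfp768* were likewise near WT in E2E8 (1.17 and 0.985 FPKM, and 2.08 and 2.35) and under it in E2G7 (0.566 and 0.494, and 1.35 and 1.25). *Zfp951* was above WT in D2A7, at 28.2 and 25.9 FPKM, and below it in D1E6, at 7.34 and 8.12, as in both *Elmsan1* KO clones. In each clone, 6.4% (D2A7), 2.8% (D1E6), 9.2% (E2E8) and 3.9% (E2G7) of the members lay at least 1.5-fold from WT, against 12.8%, 9.8%, 13.2% and 8.7% of the expressed genes. Of the 282 members, 234 (83.0%) stayed within 1.5-fold of WT in all 4 clones, as did 75.8% of the expressed genes.

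**Figure D2:**
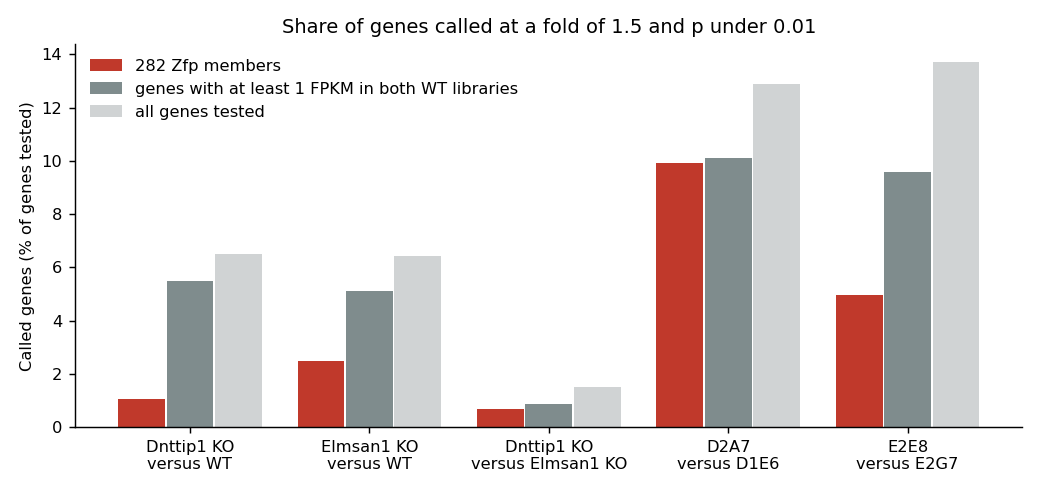
Share of genes called at 1.5-fold or more and p under 0.01 before adjustment (vertical axis, percent of genes tested) in the 5 comparisons, for the 282 members, the expressed genes and all genes tested. Members were called at 1.06% and 2.48% in the knockouts against WT, against 5.51% and 5.13% of expressed genes.

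Both comparisons with WT share the WT libraries. The values of members with an adjusted p under 0.05 in each are given side by side, as a description. Of the expressed genes, 11.3% passed in *Dnttip1* KO and 12.3% in *Elmsan1* KO. The share that passed in both was not counted, so the list cannot be set against a background. *Zfp553* was lower, at 39.5 to 43.8 FPKM in the 8 KO libraries against 55.7 and 51.7 in WT (log2 fold change -0.33 in *Dnttip1* KO, adjusted p = 0.0169, and -0.37 in *Elmsan1* KO, adjusted p = 0.0173). *Zfp187*, *Zfp617*, *Zfp821*, *Zfp869*, *Zfp90*, *Zfp930* and *Zfp958* were higher, and all but *Zfp187*, on chromosome 13, lie on chromosome 8. Of 606 other expressed genes of chromosome 8, 286 were higher in *Dnttip1* KO and 243 in *Elmsan1* KO at an adjusted p under 0.05. *Zfp869* was at 26.7 and 29.3 FPKM in WT and 34.4 to 40.5 in the KO libraries, with log2 fold changes of 0.47 (adjusted p = 0.00981) and 0.38 (adjusted p = 0.0314). *Zfp90*, whose exons overlap a gene on the other strand over 77.4% of their length, had 0.57 and 0.49. All 8 KO libraries lay below both WT libraries for 33 members (11.7%, against 14.5% of expressed genes) and above for 31 (11%, against 13.1%), 12 of the latter on chromosome 8.

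The members on chromosomes 6 and 8 moved with the other genes of those chromosomes. On chromosome 8, 19 members had median log2 differences from WT of 0.32 in D2A7, 0.34 in D1E6, 0.22 in E2E8 and 0.31 in E2G7, and 606 other expressed genes had 0.36, 0.36, 0.34 and 0.35. The difference was above 0 in all 4 clones for 14 of the 19 members. On chromosome 6, 14 members had -0.22, 0.40, 0.58 and 0.24 in the same order, and 512 other expressed genes -0.09, 0.41, 0.38 and 0.28. The part of these chromosome-wide differences in the results of single members was not tested. Without both chromosomes, 9 members fell and 6 rose at an adjusted p under 0.05 in *Dnttip1* KO, and 5 fell and 5 rose in *Elmsan1* KO, of 244 placed members. Of 10547 expressed genes off both chromosomes, 5.48% fell and 3.84% rose in *Dnttip1* KO and 5.73% fell and 3.69% rose in *Elmsan1* KO.

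**Figure D3:**
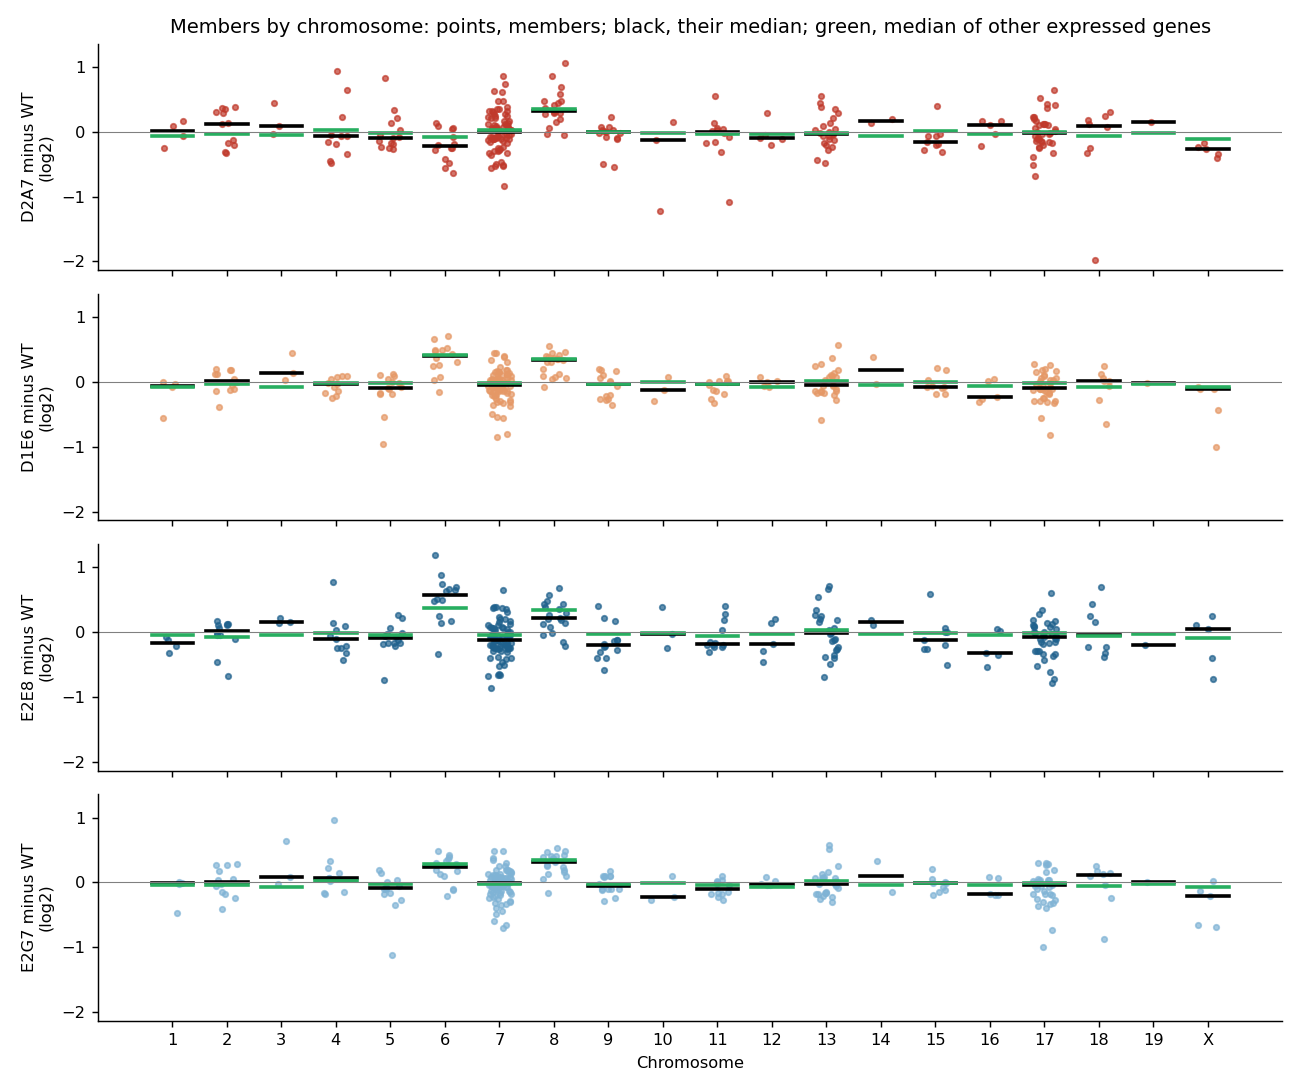
Log2 difference from WT (vertical axis) of each member by chromosome (horizontal axis) in the 4 clones. Points are members, black bars their median and green bars the median of the other genes with at least 1 FPKM in both WT libraries. Chromosome 8 lies above 0 in all 4 clones, and chromosome 6 in D1E6, E2E8 and E2G7.

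The knockouts were next compared with each other, without WT. *Zfp69* and *Zfp750* were called, both lower in *Dnttip1* KO, which is 0.709% of the members against 0.886% of expressed genes and 1.52% of all genes tested (0.415% lower and 1.11% higher). *Zfp69* was at 1.12 and 0.938 FPKM in D2A7 and 1.39 in both D1E6 libraries, below all *Elmsan1* KO libraries, and the log2 fold change was -1.14 (standard error 0.142). Its adjusted p of 0.0589 was the lowest of any member. *Zfp750* was at 0.642 and 0.813 FPKM in D2A7, 1.20 and 1.40 in D1E6, 2.25 and 2.19 in E2E8 and 1.63 and 1.68 in E2G7 (log2 fold change -0.91, adjusted p = 0.296). The groups did not overlap for either gene. With an estimated correlation within clones *Zfp750* was no longer called, with an adjusted p of 1.0 for both genes.

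More members were called between clones of the same knockout than between a knockout and WT, as were more expressed genes. Of these, 10.1% and 9.6% were called between clones, and 5.51% and 5.13% against WT. Comparisons of clones set 2 libraries against 2, test clones rather than a genotype, and use no WT values. Their p-values rest on the spread between libraries of a clone, and those against WT also on the spread between clones. The counts are therefore not on the same footing. In D2A7 versus D1E6, 12 members were lower and 16 higher, which is 9.93% against 10.1% of expressed genes and 12.9% of all genes tested (3.73% lower and 9.2% higher). By adjusted p alone 54 were lower and 56 higher, against 46.5% of expressed genes and 40.8% of all genes tested (17.4% lower and 23.3% higher). *Zfp951* differed most, with a log2 difference of 1.79 (standard error 0.069, adjusted p = 0.000473). *Zfp600* was at 33.8 and 32.7 FPKM in D2A7 and 14.2 and 15.6 in D1E6, a difference of 1.16 (adjusted p = 0.000516), and WT, E2E8 and E2G7 lay between 14.4 and 17.8. *Zfp534*, similar to *Zfp600* upstream, was at 77.1 and 73.0 FPKM in D2A7 and 35.3 to 51.0 in the other 8 libraries, a difference of 0.67 between these clones. *Zfp934* (1.14), *Zfp78* (0.83) and *Zfp964* (0.78) followed, the last with an adjusted p of 0.0171.

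Among the 16 members higher in D2A7, 14 carried the KRAB letters, and among the 12 lower ones 8 lay on chromosome 6. Of 130 members with the KRAB letters 4 were lower and 14 higher, and of 147 without them 8 were lower and 2 higher, with medians of 0.03 and -0.03. The called shares were 13.8% and 6.8%, against 10.1% of expressed genes and 12.9% of all genes tested (3.73% lower and 9.2% higher). Of the 14 higher ones 6 share over 5% of their stretches of 100 bases with another gene. In E2E8 versus E2G7, 2 members with the letters were lower and 2 higher, and 2 without them were lower and 8 higher. There the called shares were 3.08% and 6.8%, against 9.6% of expressed genes and 13.7% of all genes tested. The difference between members with and without the letters was not tested. Of the other expressed genes of chromosome 6, 37.5% were called, and the part of this in the members' calls was not tested. *Zfp521* was lower by 1.32 on the log2 scale (standard error 0.123, adjusted p = 0.0021). *Zfp365* was at 1.42 and 1.73 FPKM in D2A7 and 3.02 and 3.13 in D1E6, a difference of -0.93 (adjusted p = 0.00392). *Zfp800* (-0.89), *Zfp248* (-0.80) and *Zfp398* (-0.79) on chromosome 6 came next.

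In E2E8 versus E2G7, 4 members were lower and 10 higher, which is 4.96% against 9.6% of expressed genes and 13.7% of all genes tested (3.27% lower and 10.5% higher). *Zfp521* differed most, at 7.05 and 7.50 FPKM in E2E8 and 2.90 and 2.85 in E2G7 (log2 difference 1.31, standard error 0.0524, adjusted p = 0.000546). *Zfp296*, a pluripotency-linked gene, was at 14.3 and 14.7 FPKM in E2E8, 27.6 and 29.9 in E2G7 and 24.8 to 35.1 in the other 6 libraries, a difference of -0.98 (standard error 0.048, adjusted p = 0.000642). *Zfp819* differed by -0.94 (adjusted p = 0.000546), *Zfp428* by -0.85 and *Zfp658* by -0.72. *Zfp775* of chromosome 6 was at 5.72 and 5.75 FPKM in E2E8 and 2.13 to 2.84 elsewhere, a difference of 1.01. *Zfp54* (0.90), *Zfp185* (0.90) and *Zfp580* (0.82) were also higher in E2E8. By adjusted p alone 93 members were lower in E2E8 and 64 higher, against 56.3% of expressed genes and 50.7% of all genes tested (21.4% lower and 29.3% higher). The median difference was -0.06, against 0.05 over all genes tested.

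*Zfp365*, *Zfp521* and *Zfp800* were called between both pairs of clones, 1.06% of the members, against 2.66% of expressed genes and 3.49% of all genes tested in both. All 3 were lower in D2A7 than D1E6 and higher in E2E8 than E2G7. *Zfp365* was at 4.90 and 5.06 FPKM in E2E8 and 3.28 and 2.96 in E2G7, and *Zfp800* at 4.38 in both E2E8 libraries and 2.60 and 2.56 in E2G7. The WT libraries lay between the lowest and highest clone for each of the 3 genes, at 3.82 and 3.73 FPKM for *Zfp365* and 2.83 and 2.72 for *Zfp800*.

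**Figure D4:**
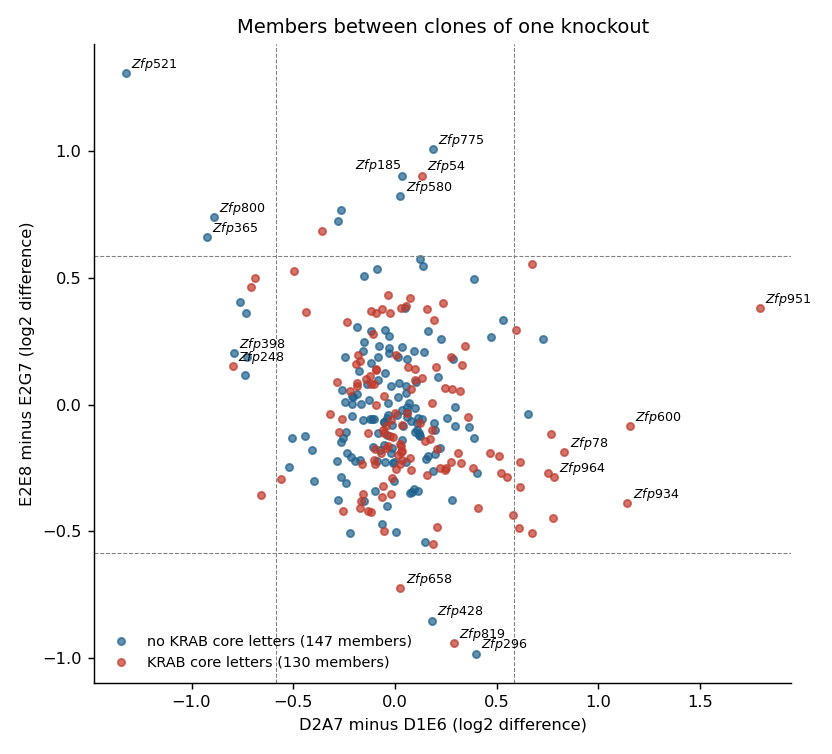
Log2 difference of each placed member between D2A7 and D1E6 (horizontal axis) and between E2E8 and E2G7 (vertical axis). Red points are 130 members with the letters of a KRAB core and blue points 147 without, dashed lines mark a fold change of 1.5, and *Zfp951* at 1.79 lies farthest right.

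**Figure D5:**
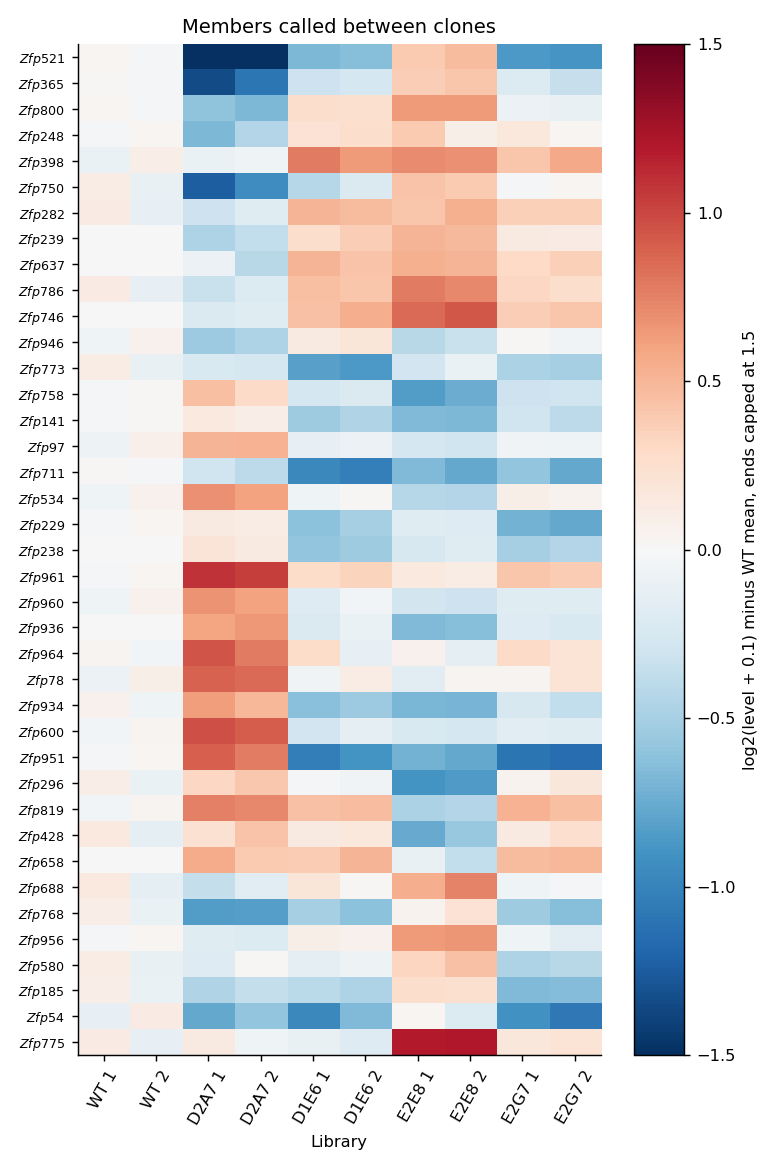
Colour gives log2(level + 0.1) minus the WT mean, capped at 1.5 in either direction, for the 39 members called between clones of one knockout (rows) in the 10 libraries (columns). The 2 libraries of a line share their colours, and *Zfp521* is lowest in D2A7.

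Of 28 members with a known function, *Zfp819* was called in *Dnttip1* KO and *Zfp711* in *Elmsan1* KO, a number near that among the expressed genes (5.51% and 5.13%), and the median log2 fold changes were 0.01 and -0.09. Among silencers of retroviral and imprinted sequences, *Zfp809* was at 15.0 and 15.4 FPKM in WT and 12.1 to 18.2 in the KO libraries, *Zfp932* at 9.59 and 10.3 against 8.17 to 9.68 and *Zfp445*, which guards imprinted genes, at 21.0 and 23.6 against 20.0 to 24.6. *Zfp568*, whose protein represses a placental promoter of *Igf2*, rose in *Dnttip1* KO by 0.29 (adjusted p = 0.0268), from 31.1 and 31.6 to between 37.1 and 39.7 FPKM. The *Elmsan1* KO clones split for *Zfp568*, with 32.1 FPKM in both E2E8 libraries and 41.0 and 40.4 in E2G7. Of the related genes *Zfp532*, *Zfp592* and *Zfp687*, whose proteins share a complex, *Zfp532* fell in *Dnttip1* KO by 0.27 (adjusted p = 0.0452).

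*Zfp598*, a ubiquitin ligase that senses collided ribosomes, was at 27.4 and 28.2 FPKM in WT and 26.7 to 30.1 in the KO libraries. *Zfp622*, a ribosome assembly factor, was at 20.2 and 20.0 against 16.5 to 19.9, and *Zfp451*, a SUMO ligase, at 4.75 and 4.82 against 4.45 to 4.71. *Zfp36*, the mRNA decay factor tristetraprolin, was at 2.99 and 2.60 against 3.01 to 4.50, a log2 difference of 0.38 in *Dnttip1* KO that did not pass (adjusted p = 0.26). *Zfp281*, a pluripotency regulator, was at 23.4 FPKM in both WT libraries, at 19.7 in both D2A7 libraries and at 19.01 and 18.55 in E2E8, but at 22.9 to 23.7 in D1E6 and E2G7. The clones of a knockout differed in *Zfp281* by -0.24 (adjusted p = 0.00416) and -0.31 (adjusted p = 0.00262).

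Corepressors and other chromatin genes, among them those that KRAB proteins recruit, were not called against WT (all genes tested, 6.51% and 6.43%). Among 29 tested genes, which included *Trim28*, log2 fold changes ran from -0.38 to 0.46 in *Dnttip1* KO and from -0.57 to 0.35 in *Elmsan1* KO, all under 1.5-fold, and 1 gene passed an adjusted p under 0.05 in each, *Hdac1* (0.25) and *Cbx3* (0.35). *Trim28* was at 426 and 424 FPKM in WT, 422 to 437 in the *Dnttip1* KO libraries and 439 and 441 in E2G7, but at 327 and 322 in E2E8, a difference between the *Elmsan1* KO clones of -0.44 (standard error 0.0355, adjusted p = 0.00131). Between clones 1 of the 29 genes (3.45%) was called in each pair, against 12.9% and 13.7% of all genes tested. *Cbx3* was lower in D2A7 than D1E6 (-0.65). *Dnmt3b* was at 3.65 and 3.82 FPKM in E2E8, 13.5 and 13.6 in E2G7 (-1.83) and 11.1 and 10.2 in WT. Of 24 other zinc finger genes tested, *Zic2* alone was called against WT, lower in *Dnttip1* KO (-0.74, adjusted p = 0.0634). That is 4.17%, against 6.51% of all genes tested. Of the genes left out by name, *Zfp42*, a marker of naive mESCs, rose by 0.50 and 0.36 (adjusted p = 0.0386 and 0.0263) and *Zfp57*, which guards imprints, fell by 0.75 on the log2 scale in *Elmsan1* KO (adjusted p = 0.00173). *Zfp57* was at 75.3 and 79.2 FPKM in WT and 44.2 to 46.9 in the *Elmsan1* KO libraries. The *Dnttip1* KO clones split, with 50.0 and 53.1 FPKM in D1E6 and 72.7 and 78.5 in D2A7.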

How the data were processed

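Paired-end reads of stranded total RNA were mapped to NCBIM37 by the authors and counted per gene with HT-seq, and FPKM values of 10 libraries were deposited. Their methods name GENCODE vM20, whereas identifiers were matched here to GENCODE vM1, the annotation on NCBIM37. Gene lengths and library totals behind the values are not given in the sources used here. The authors tested counts with voom and limma (edgeR 3.16.5, R 3.3.1), per their processing notes. Which library ran on which sequencer is not given in the sources used here.

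FPKM were scaled by median ratios over 11270 genes (factors 0.965 to 1.01). A gene entered a comparison where 2 or more of its libraries reached 0.1 FPKM. Values were tested as log2(FPKM + 0.1) by limma 3.58.1 (R 4.3.3), two-sided, with a variance trend. Fold changes are on this scale and understate those of low genes. All 282 members passed in every comparison, as at least 1 FPKM in WT guarantees against WT. FPKM times exon length gave whole fragments within 0.02 for 98.1% to 98.4% of the low values, so voom on these fragments was added as an alternative. The study calls the libraries of a line biological replicates, and how they were cultured apart is not given in the sources used here, so p-values measure the spread between these libraries. Libraries of a line differed beyond counting noise (chi-square per gene 5.39 to 6.12).

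The members and lists were chosen with earlier results of these data known. Named were all members called against WT, up to 5 per direction called in each other comparison, the 5 with the highest WT level, those with a known role and 3 on either side of the threshold. Members named for a promoter word, a similar upstream sequence or a change in both knockouts were chosen after their values were seen. The promoter word was first searched with 1 more letter and then shortened. Statistics were tested on simulated data with seeded changes.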

Additional observations from a re-analysis of the deposited data

Results flagged for a closer look

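Between the knockouts, 2 named members differed by the direct limma test, with log2 fold changes of *Dnttip1* KO over *Elmsan1* KO of -1.14 for *Zfp69* and -0.91 for *Zfp750*. Between the *Dnttip1* KO clones, D2A7 minus D1E6 was -1.32 for *Zfp521*, -0.93 for *Zfp365*, -0.89 for *Zfp800*, -0.80 for *Zfp248* and -0.79 for *Zfp398*, and 1.79 for *Zfp951*, 1.16 for *Zfp600*, 1.14 for *Zfp934*, 0.83 for *Zfp78* and 0.78 for *Zfp964*. Between the *Elmsan1* KO clones, E2E8 minus E2G7 was -0.98 for *Zfp296*, -0.94 for *Zfp819*, -0.85 for *Zfp428* and -0.72 for *Zfp658*, and 1.31 for *Zfp521*, 1.01 for *Zfp775*, 0.90 for *Zfp54*, 0.90 for *Zfp185* and 0.82 for *Zfp580*.

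A single library stood apart from the other 3 of its knockout in 2 of 110 groups examined (55 named members in each knockout). The usual rate of about 1 in 20 is for 4 independent samples. Here 2 clones gave 2 libraries each, so that rate does not apply. In the *Dnttip1* KO libraries the gap divided by the range was 0.916 for *Zfp143*, where D1E6 replicate 1 was lowest at 12.7 FPKM, and 0.849 for *Zfp326*, where D1E6 replicate 2 was highest at 2.28 FPKM.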

How the results depend on the processing

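Counts of called members moved with the settings as follows, in the order *Dnttip1* KO versus WT (3 called), *Elmsan1* KO versus WT (7), *Dnttip1* KO versus *Elmsan1* KO (2), D2A7 versus D1E6 (28) and E2E8 versus E2G7 (14). A pseudocount of 1 gave 0, 2, 1, 17 and 8. The correlation within clones gave 1, 3 and 1 in the first 3 comparisons. A single fit of all 10 libraries gave 9 in the first and 8 in the third. Members with at least 2 FPKM in both WT libraries gave 1, 2 and 0 in the first 3. An adjusted p under 0.05 with a 1.5-fold change gave 0 in the third. Members off chromosomes 6 and 8, a choice made after seeing the data, gave 18 in the fourth. The cause of these moves was not tested. With each library left out in turn the counts ran from 1 to 4, 2 to 9, 1 to 5, 25 to 28 and 14 to 17. In the first comparison D2A7 replicate 1 or WT replicate 2 left out gave 1, in the second WT replicate 1 left out gave 2, and in the third D2A7 replicate 2, E2E8 replicate 1 or E2E8 replicate 2 left out gave 1 and D1E6 replicate 1 left out gave 5. Without WT replicate 1 the first comparison called 2 members, 0 of them among the 3.

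Samples with the same replicate number did not deviate together (correlations of -0.139 to 0.192 over 10 pairs of groups), so the numbers do not pair them. With a replicate block the counts were 3, 6, 2, 28 and 14. Voom on recovered fragments, added after seeing the data, gave 3, 6, 2, 28 and 15. For single named members, 406 values kept their direction and side of the threshold over the alternatives, 65 kept their direction and lost the call, and none changed sign.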
